A study of Mus musculus with 18 samples.

Results

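The genes described here are the 96 genes of the extracellular matrix and its receptors whose symbols name a laminin chain, an integrin, a collagen chain, a tenascin (Tnc, Tnn, Tnr) or one of Fn1, Bcam, Nid1, Nid2, Hspg2, Dst, Pdpn and Cd44. They were taken by symbol from 49585 genes in the count tables of the Aire and Fezf2 knockouts and from 21969 genes in that of the Chd4 knockout, and the same 96 gene IDs were in all of them. The set was chosen with earlier results of these data known, so its counts beside those of all genes are descriptive and no independent test. A total of 5 of these genes are not chains of the usual integrins: Itgb1bp1, Itgb1bp2, Itgb3bp and Itgbl1 match by name only, and Itgb2l is a relative of Itgb2. RNA was sequenced from sorted mouse medullary thymic epithelial cells (mTECs), which switch on genes otherwise restricted to other organs and present the products to developing T cells. There were 18 libraries in 6 groups of 3. On C57BL/6 there were the groups labelled Aire KO and Fezf2 KO, each beside its own wild-type (WT) mice, called the WT for Aire and the WT for Fezf2. The count columns of the Fezf2 KO are headed as a conditional knockout (cKO), and the driver of any conditional allele was not given in the sources used here. The remaining groups were C57BL/6x129P2 mice with Chd4 flox/flox alleles, which carried Foxn1-Cre in the Chd4 cKO and no Cre in the Chd4 control. Foxn1-Cre drives recombination in thymic epithelium, so cells of other kinds in a sort would keep Chd4, and both Chd4 groups carry the floxed alleles and the mixed strain. The age of the mice and whether animals were pooled were not given in the sources used here. Nothing states that the 3 libraries of a group came from separate animals, so p values cover only the spread among these libraries, which may be technical.

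The extracellular matrix is the network of secreted proteins that cells sit on. In epithelia its sheet-like form, the basement membrane, is built from laminin trimers of an alpha, a beta and a gamma chain, from collagen IV, and from nidogens and perlecan that link the 2 networks. Epithelial cells hold on to it with integrins, which are pairs of an alpha and a beta chain: the integrin of Itga6 and Itgb4 binds laminin that contains the chains Lama3 and Lamb3 in hemidesmosomes, plaques that also contain Col17a1 and Dst and are tied to keratin filaments. In the thymus, matrix is known both as a scaffold around epithelial cells and vessels and as a surface on which thymocytes move.

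Exon reads per library ranged from 3571570 to 17220157, the deepest being Chd4 cKO B, and 3 reads, taken as the floor for a count of 0, were worth between 0.174 and 0.84 CPM (counts scaled to library size). Libraries of a group are called A, B and C, which are names only. WT for Fezf2 B stood apart from its group: the chi-square between replicates, divided by the number of genes, was 35.4 and 39.3 for the 2 pairs that include it and 4.07 to 10.2 for the other 16 pairs. Counts of the Fezf2 comparison, and the values of some of its genes, are therefore given with and without it. Markers of mTECs summed to between 11640 and 19920 CPM over the 18 libraries, against 70.04 to 801.2 CPM for thymocyte markers and 406.9 to 1307 CPM for fibroblast and pericyte markers. The mTEC list holds Aire and Fezf2 themselves. As a check of the labels, Fezf2 averaged 652 ± 82.5 CPM in its WT and 13.6 ± 8.46 CPM in the KO (mean ± SD, n = 3), and Chd4 averaged 60.3 ± 5.69 CPM in the Chd4 control and 27.4 ± 2.80 CPM in the cKO. Aire reads were more frequent in the group labelled Aire KO (3941 ± 182 CPM) than in its WT (2018 ± 255 CPM, n = 3). The deletion's exons were not given in the sources used here. Reads of Aire outside the deleted part check nothing, so directions below are those of the libraries labelled Aire KO.

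Tnc, which encodes the matrix glycoprotein tenascin-C, had the highest level per exon length of the 96 genes in all 6 groups, in reads per kilobase of exon scaled to library size (RPKM). Its level was 68.4 ± 2.14 RPKM in the WT for Aire, 92.7 ± 24.5 in the group labelled Aire KO, 77.4 ± 35.9 in the WT for Fezf2, 81.1 ± 11.5 in the Fezf2 KO, 128.6 ± 4.01 in the Chd4 control and 382.9 ± 35.6 in the Chd4 cKO (n = 3 each). In the WT for Fezf2 library B was the lowest at 36.0 RPKM, and the 3 Chd4 cKO libraries, at 342.2 to 408.4 RPKM, were far above the 123.9 to 131 RPKM of their control. The 10 genes with the highest level held between 49.3 and 65.6% of the summed RPKM of the 96 genes, and genes in the top 10 of each group included Tnc, Itgb1, the integrin beta chain shared by most matrix receptors, Itga6, Itgb4 and Col4a1, a collagen IV chain of basement membranes. Levels of the Chd4 libraries and of the others come from tables with different gene annotations and from different sequencing runs, so only the order within a group is compared across them.

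Levels of the laminin chains per exon length were not equal. They rest on the exon lengths used, 10745 bases for Lama3 and 5525 bases for Lamb3 in the WT for Aire. Which transcripts of these genes were present was not tested. In the WT for Aire, Lamb3 stood at 8.18 ± 1.05 RPKM and Lama3 at 5.18 ± 0.603 (n = 3), and the libraries of these chains did not overlap. The same order held in the group means of the WT for Fezf2 (7.19 and 4.27 RPKM) and of the Chd4 control (16.3 and 8.57 RPKM), although libraries overlapped in the WT for Fezf2, where B was low for both. Lama5, the alpha chain of the widely distributed laminins of mature basement membranes, was at 1.73 ± 0.250 RPKM in the WT for Aire, below Lama3.

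**Figure D1:**
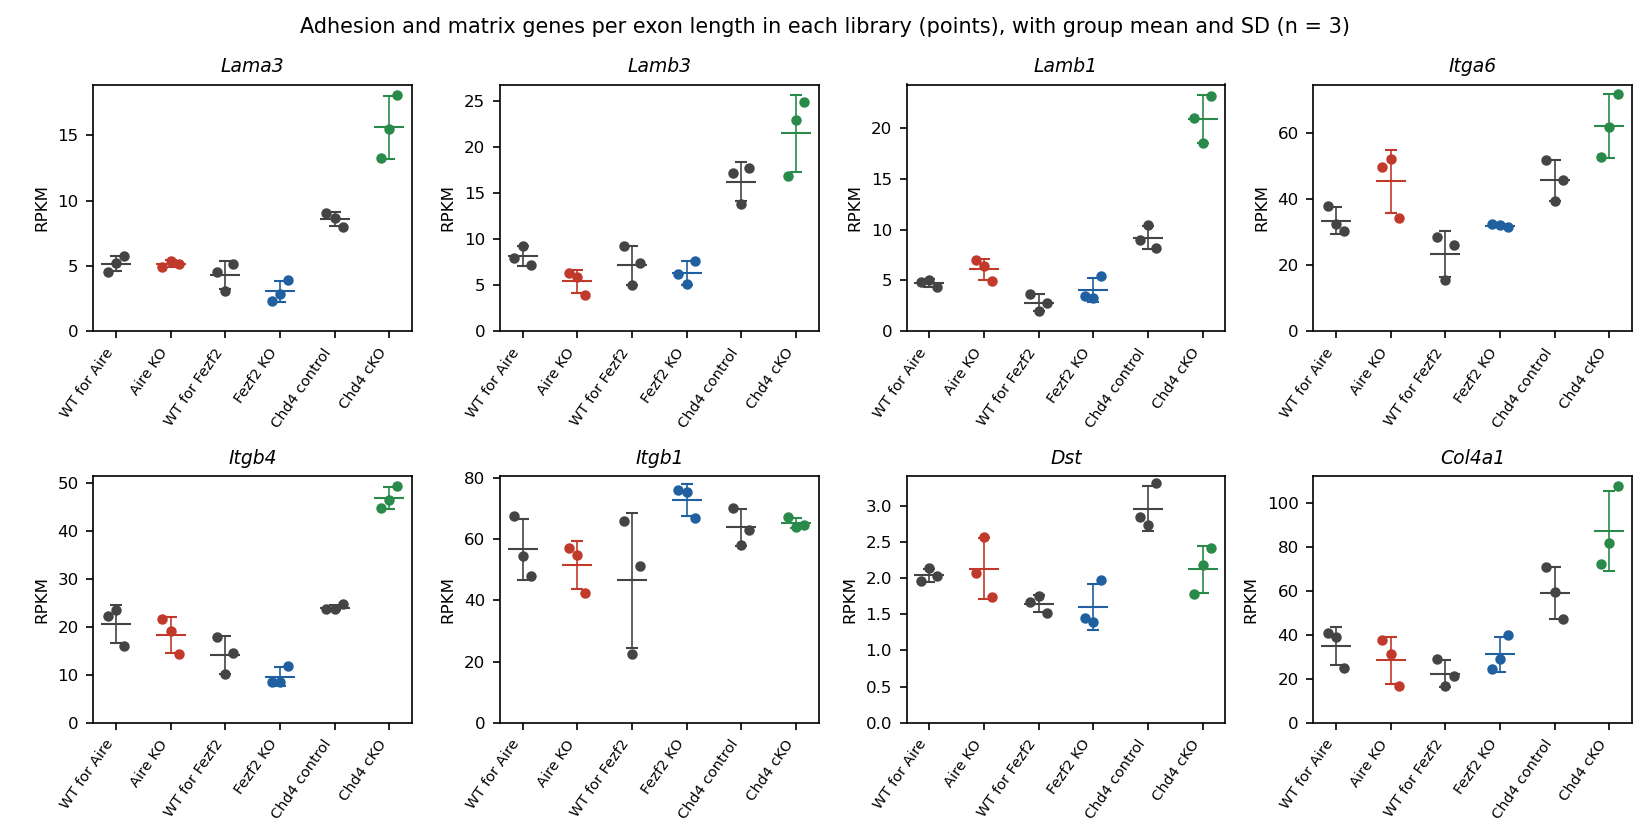
Level of 8 adhesion and matrix genes per exon length (vertical axis, RPKM) in each of the 6 groups (horizontal axis); points are libraries, the horizontal mark is the group mean and the bar the SD (n = 3). The mean of Lamb3 lies above that of Lama3 in each group, and Itgb4 and Lama3 are above their control in all 3 Chd4 cKO libraries.

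All 96 genes together took 0.375 to 0.396% of exon reads in the WT for Aire, 0.323 to 0.351% in the group labelled Aire KO, 0.255 to 0.430% in the WT for Fezf2 (the lowest in B) and 0.303 to 0.362% in the Fezf2 KO. It was 0.493 to 0.536% in the Chd4 control and 0.793 to 0.885% in the Chd4 cKO, a difference for which no test was run. Tnc alone supplied 17.9 to 20.6% of those reads in the Chd4 control and 33.2 to 38.2% in the Chd4 cKO. With Tnc left out the share was 0.391 to 0.440% in the control and 0.501 to 0.571% in the cKO, so the libraries of these groups did not overlap either way.

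**Figure D2:**
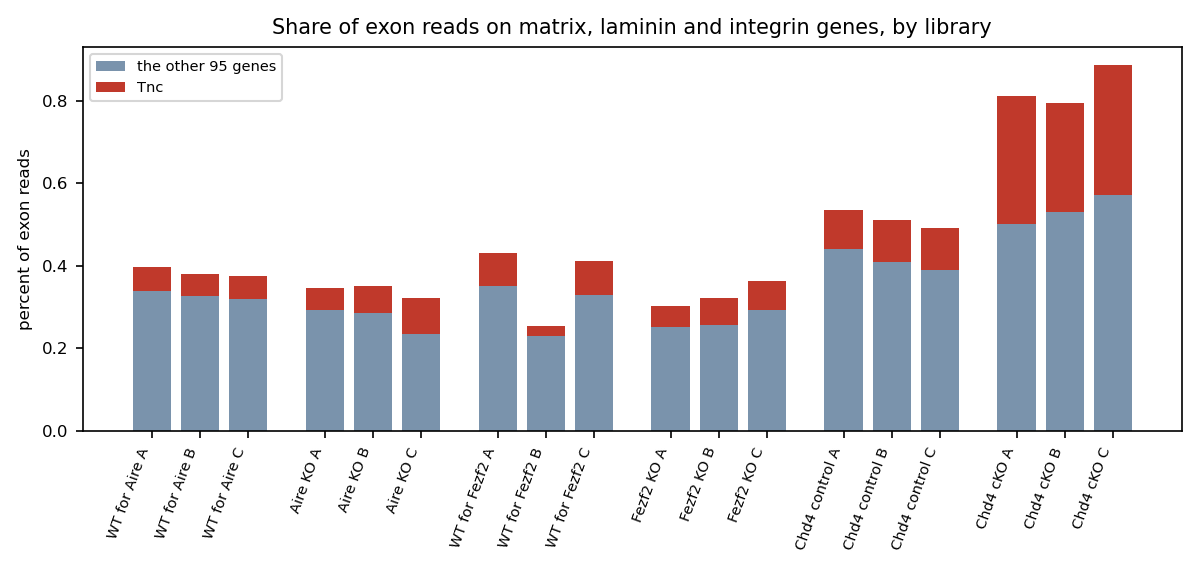
Percent of exon reads (vertical axis) on the 96 genes in each of the 18 libraries (horizontal axis), divided into Tnc and the other 95 genes. The 3 Chd4 cKO libraries lie at 0.793 to 0.885%, above the 0.493 to 0.536% of their control, and B is the lowest library of the WT for Fezf2, at 0.255%.

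The DNA just before the start of 4 of these genes is shown because their changes carry the comparisons that follow: Tnc and Nid1 moved in opposite directions in the Chd4 cKO, Col17a1 fell in the Fezf2 KO and rose in the Chd4 cKO, and Col5a3 was lower both in the group labelled Aire KO and in the Fezf2 KO. Each run holds the 250 bases before the RefSeq start on build GRCm38.p6, read 5′ to 3′ on the gene's strand. Capitals mark the motifs searched on both strands. These were TATAAA (core of the TATA box), GGGCGG (known as a binding sequence of Sp1 factors), CCAAT (bound by NF-Y) and TGANTCA (bound by factors of the Jun and Fos families).
Tnc: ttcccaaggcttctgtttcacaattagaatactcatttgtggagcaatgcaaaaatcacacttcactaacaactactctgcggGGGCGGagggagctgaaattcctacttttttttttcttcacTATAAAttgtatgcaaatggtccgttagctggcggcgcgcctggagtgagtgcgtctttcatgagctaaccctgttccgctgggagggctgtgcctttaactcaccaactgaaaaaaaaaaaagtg
Col17a1: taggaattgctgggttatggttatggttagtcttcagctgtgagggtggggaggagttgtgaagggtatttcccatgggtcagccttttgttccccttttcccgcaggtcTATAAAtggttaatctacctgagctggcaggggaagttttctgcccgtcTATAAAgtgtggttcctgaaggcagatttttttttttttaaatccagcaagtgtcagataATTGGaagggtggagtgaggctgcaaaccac
Nid1: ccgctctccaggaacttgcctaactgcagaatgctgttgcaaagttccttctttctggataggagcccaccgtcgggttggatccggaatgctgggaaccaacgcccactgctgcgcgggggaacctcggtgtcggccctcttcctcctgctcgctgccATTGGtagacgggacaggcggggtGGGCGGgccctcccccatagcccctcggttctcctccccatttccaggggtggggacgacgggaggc
Col5a3: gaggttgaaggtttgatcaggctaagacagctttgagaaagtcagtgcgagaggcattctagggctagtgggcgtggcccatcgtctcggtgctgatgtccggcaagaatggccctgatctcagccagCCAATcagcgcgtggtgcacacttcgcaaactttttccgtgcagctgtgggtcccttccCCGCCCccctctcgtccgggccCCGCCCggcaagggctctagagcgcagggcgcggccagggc
These lie at chr4:64047016-64047265 for Tnc, on the minus strand and with 2 starts in RefSeq of which 1 is shown, chr19:47692043-47692292 for Col17a1 (minus strand), chr13:13437352-13437601 for Nid1 (plus strand) and chr9:20815068-20815317 for Col5a3 (minus strand).
Col17a1 held 2 TATAAA matches, 1 CCAAT match and 2 CG dinucleotides. Nid1 held 1 GC box, 1 CCAAT match and 16 CG dinucleotides, Col5a3 2 GC boxes, 1 CCAAT match and 17 CG dinucleotides, and Tnc 1 TATAAA match, 1 GC box and 8 CG dinucleotides. None of the 4 held TGANTCA. RefSeq starts were matched for 70 of the 96 genes, taking 1 start for each gene. TATAAA was in 8.57% of those 70 windows and in 13.0% of all 27025 windows of the same length, GGGCGG in 47.1% and 32.9%, CCAAT in 25.7% and 34.5%, and TGANTCA in 2.86% and 6.87%. The windows of the 70 genes had a median of 10 CG dinucleotides, against 6 over all windows. Among the 22 genes with a window that were lower in the group labelled Aire KO, 4 held TATAAA and 11 held GGGCGG. Of the 16 with a window that were higher in the Chd4 cKO, 3 held TATAAA and 10 held GGGCGG, and of the 14 that were lower there, 2 held TATAAA and 5 held GGGCGG.

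In the libraries labelled Aire KO, 25 matrix genes fell and 1 rose. The falls were of collagen chains and of Nid1, Tnn, Lama5, Lamc3, Bcam, Cd44, Itga7 and Itgb8. The hemidesmosome genes Lama3, Itga6, Itgb4, Col17a1 and Dst did not pass the main test. Of 80 genes tested, 25 were lower and 1 was higher at a Benjamini-Hochberg adjusted p under 0.05 in edgeR's quasi-likelihood test, which is the threshold throughout. Over all 14949 genes tested, 9.37% were lower and 5.73% were higher. The groups did not overlap in 17.1% of all genes on the lower side and in 15% on the higher side. The median log2 fold change was -0.47 over the 80 genes and -0.000414 over all genes. Leaving out WT for Aire C gave 14 lower genes and leaving out Aire KO B gave 15. The 16 genes that did not pass the filter on low counts had a group mean of at most 4.03 CPM.

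Among laminin chains 2 of 11 were lower. Lama5 was at 20.2, 16.6 and 22.2 CPM in the WT for Aire and at 7.62, 8.79 and 10.9 CPM in those labelled Aire KO. All 3 were below all 3 controls, with a log2 fold change of -1.11 (SE 0.26, adjusted p = 0.0104), which rose to adjusted p = 0.0513 without WT for Aire C and to 0.0904 in a fit over 12 libraries. Lamc3, a rare gamma chain, fell by 1.91 on the log2 scale (SE 0.53, adjusted p = 0.0259). Lamb3 had a log2 fold change of -0.59 (adjusted p = 0.0599), and Lama3, Lamb2 and Lamc1 had log2 fold changes of -0.01, 0.25 and -0.01.

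Nid1, a nidogen that bridges laminin and collagen IV, had 30.9, 30.3 and 22.7 CPM in the WT for Aire and 7.14, 5.14 and 4.73 CPM in those labelled Aire KO. The groups were far apart and did not overlap, at a log2 fold change of -2.30 (SE 0.27, adjusted p = 8.08e-05). Its relative Nid2 (-0.49, adjusted p = 0.161) and perlecan, Hspg2 (0.64, adjusted p = 0.316), did not pass the test. The main collagen IV chains Col4a1 (-0.30, adjusted p = 0.495) and Col4a2 (-0.36, adjusted p = 0.353) did not either, whereas 3 of the 6 basement membrane collagens tested were lower: Col4a5, Col7a1, the chain of anchoring fibrils, and Col18a1.

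Of the fibrillar collagens, which form the fibres of connective tissue, 6 of 9 tested were lower. Col1a1, the main chain of collagen I, was at 19.2, 12.3 and 19.0 CPM in the WT for Aire and at 2.86, 1.07 and 2.60 CPM in those labelled Aire KO (-2.95, SE 0.40, adjusted p = 0.000253). Its partner Col1a2 fell less, from 16.4 ± 2.06 to 7.60 ± 1.87 CPM (-1.11, adjusted p = 0.0185). Col5a3, a collagen V chain, fell from 50.9 ± 8.91 to 22.3 ± 4.84 CPM and Col3a1, collagen III, from 42.8 ± 1.86 to 20.6 ± 4.17 CPM. All 3 libraries labelled Aire KO lay below the WT libraries for each of these 4 genes; Col1a2, Col5a3 and Col3a1 were picked for the text after their values were seen, as were Lamc3, Col7a1, Col18a1 and Itgb8. Markers of fibroblasts and pericytes, which are major sources of fibrillar collagen, summed to 425.7 to 523.2 CPM in the WT for Aire and 563.5 to 696.4 CPM in those labelled Aire KO, with Dcn and Lum higher and Pdgfrb and Acta2 lower among 10 tested, and none of the 12 at 0 reads. Endothelial markers summed to 56.54 to 64.19 CPM and 81.1 to 114.3 CPM, with 1 higher of 8 tested. The part of these cells in the collagen values was not tested.

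The collagens that decorate fibrils or form beads and networks held 6 lower genes and the only higher one among 17 tested. Col9a1, a cartilage collagen IX chain, fell from 29.5, 12.8 and 19.0 CPM to 1.67, 3.43 and 6.62 CPM (-2.38, SE 0.44, adjusted p = 0.00228). Col10a1, the collagen of hypertrophic cartilage, fell from 6.76 ± 3.38 to 1.15 ± 0.865 CPM and Col20a1 from 7.99 ± 1.71 to 1.21 ± 1.10 CPM. Col6a3 had 45 reads in the WT for Aire and 3 in those labelled Aire KO, a ratio of reads of 15.0 with a 95% exact interval of 4.82 to 75.6 for counting error only. Col14a1, a fibril-associated collagen, went the other way, from 88.6, 80.1 and 99.3 CPM to 190.5, 189 and 167 CPM. Its groups were well apart, with a log2 fold change of 1.03 (SE 0.12, adjusted p = 8.28e-05), and no library, left out alone, ended that call.

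Of the 4 transmembrane collagens, Col23a1 fell from 6.06, 5.83 and 6.69 CPM to 0.476, 0.214 and 0.473 CPM (-3.92, SE 0.59, adjusted p = 0.000566), the largest fall of the genes tested here. Col13a1 fell too (-1.99, adjusted p = 0.0158), while Col17a1, the hemidesmosome collagen, overlapped at 68.4, 75.6 and 94.1 CPM against 80.7, 65.6 and 95.5 CPM (0.02, adjusted p = 0.954). Among tenascins, Tnn, tenascin-W, fell from 8.28, 10.8 and 13.4 CPM to 0.476, 1.07 and 0.709 CPM (-3.78, SE 0.49, adjusted p = 0.000192). Tnc was at 551.1, 522 and 523 CPM and at 559, 672 and 930 CPM; the libraries labelled Aire KO were all above the WT but spread widely, and the test was not passed (0.44, adjusted p = 0.0783). Tnc was called higher in 3 of 10 alternatives: DESeq2, no filter on low counts, and without Aire KO A. Fibronectin, Fn1, overlapped between the groups (-0.43, adjusted p = 0.266) and was called only without WT for Aire B.

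Of the 20 integrin chains tested 2 were lower. Itga7, the alpha chain of a laminin receptor known from muscle, fell from 9.49, 10.8 and 6.26 CPM to 0.238, 0.214 and 1.66 CPM (-3.62, SE 0.64, adjusted p = 0.00174, and -5.12 without Aire KO C). Itgb8, whose integrin activates latent TGF-beta, fell from 68.1 ± 19.2 to 39.3 ± 5.25 CPM (-0.79, adjusted p = 0.0138). The epithelial chains Itgb1 (-0.14), Itgb4 (-0.17), Itgav (-0.05) and Itga6 (0.44, adjusted p = 0.0718) did not pass the test. Itga6 was called higher in 4 of 10 alternatives: DESeq2, no filter on low counts, limma voom, and without Aire KO C. Among leukocyte integrins, Itgad had 57 reads in the WT for Aire and 0 in those labelled Aire KO, at least 19.0-fold lower with 3 reads over the group as the floor. Itgax was at 9 and 0 reads, at least 3.004-fold lower, and Itgb2l, a relative of Itgb2, at 29 and 0 reads, at least 9.68-fold lower. Itgad, Itgax and Itgb2l did not pass the filter on low counts, so no test was run on them here. Macrophage and dendritic cell markers summed to 1047 to 1298 CPM in the WT and 1143 to 1776 CPM in those labelled Aire KO. These sums overlapped, with 2 higher and 2 lower of 7 tested and Itgax alone at 0 reads. Itgal had 43.3 ± 6.20 CPM in the WT and 29.4 ± 12.1 CPM in those labelled Aire KO (-0.56, adjusted p = 0.155), and thymocyte markers overlapped at 70.04 to 153.7 and 80 to 134.5 CPM. The sum of general leukocyte markers was higher, at 1797 to 2135 CPM in the WT and 2374 to 2800 CPM in those labelled Aire KO, with 3 of 6 higher and none lower. That of B cell markers was lower, at 171.8 to 181.6 and 112.7 to 137.1 CPM, with 1 higher and 1 lower of 7 tested, and no gene of either list was at 0 reads. The part of any of these cells in the integrin values was not tested.

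Of the receptors other than integrins 2 of 4 were lower. Bcam, the Lutheran glycoprotein that binds the laminin alpha 5 chain, fell from 32.7, 36.6 and 27.9 CPM to 17.9, 15.4 and 19.9 CPM (-0.87, SE 0.20, adjusted p = 0.00943, and 0.0524 without WT for Aire B). Cd44, the hyaluronan receptor, fell from 70.7, 94.9 and 60.9 CPM to 45.5, 42.0 and 36.9 CPM (-0.86, SE 0.17, adjusted p = 0.0042). Pdpn, podoplanin, was under 7 CPM in each library and Dst had a log2 fold change of 0.07. Of the 16 genes named by rule and called here, 8 kept the call whichever library was left out: Cd44, Col14a1, Col1a1, Col23a1, Col9a1, Itga7, Nid1 and Tnn. Col10a1, Col11a2, Col13a1, Col20a1, Col4a5 and Col6a3 lost it without 2 to 4 of the 6 libraries, at adjusted p of up to 0.102, with the fold change negative throughout.

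Other genes of the matrix, from 6 lists joined without the genes described so far, were lower in 13 and higher in 8 of 107 cases (12.1 and 7.48%), near the 9.37 and 5.73% of all genes. Of the 29 tested of 34 further matrix glycoproteins and proteoglycans 5 were lower and 3 higher, among them Ecm1 (-2.40, adjusted p = 6.45e-05), Bgn, biglycan (-2.29, adjusted p = 0.013), and the fibril-binding proteoglycans Lum (1.63, adjusted p = 0.00919) and Dcn (1.43, adjusted p = 2.88e-05). Of 23 matrix proteases and inhibitors tested 3 were lower, Mmp13 (-2.88, adjusted p = 0.00055), Mmp23 (-0.93, adjusted p = 0.0169) and Mmp9 (-0.78, adjusted p = 0.00602). Enzymes of collagen synthesis and crosslinking were mostly uncalled, with 1 higher (P4ha1) and 1 lower (Pcolce) of 19, and 3 of 17 integrin partners inside the cell were higher, Lims1, Fermt1 and Ilk, by at most 0.46 on the log2 scale. In the hemidesmosome list only the basal keratin Krt5 was called, at -0.69 (adjusted p = 0.00245).

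**Figure D3:**
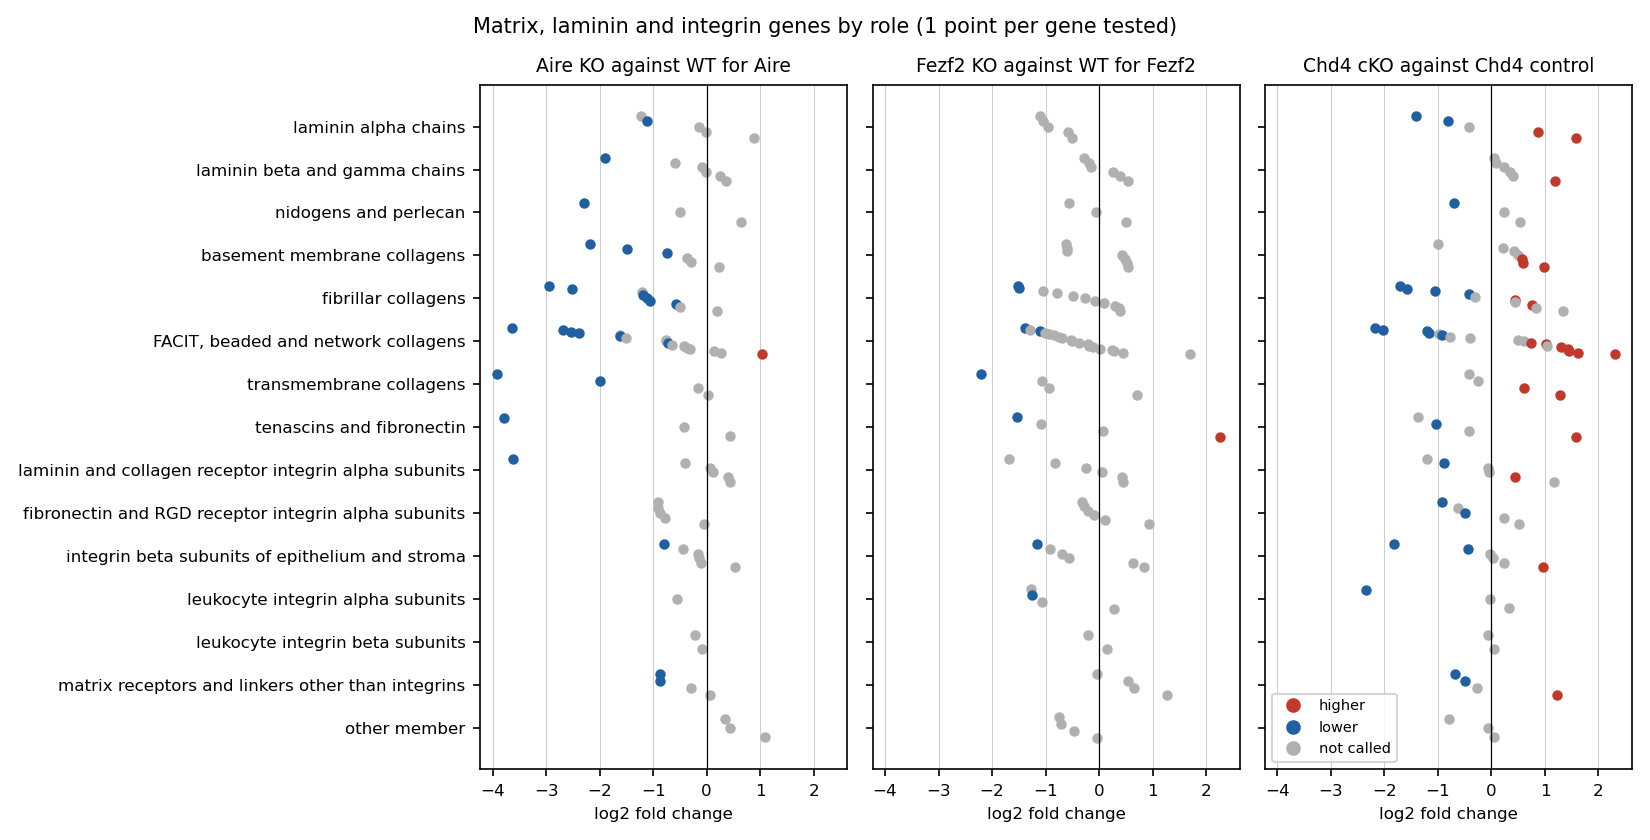
Log2 fold change (horizontal axis) of each gene tested, grouped by role (vertical axis), in the 3 comparisons; red points are called higher, blue points lower and grey points are not called. In the group labelled Aire KO 25 of 80 genes are blue and 1 is red, in the Fezf2 KO 8 and 1 of 91, and in the Chd4 cKO 21 are blue and 22 red of 87.

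In the Fezf2 KO fewer of these genes passed the test, and the fall of Col17a1 was the clearest. Fn1, the collagen V chains Col5a2 and Col5a3, Col6a2, Col14a1, Itgb8 and the leukocyte integrin Itgal were lower as well, and the tenascin Tnr was higher. Of 91 genes tested 8 were lower and 1 was higher, against 2.4% lower and 2.48% higher of all 15695 genes. The groups did not overlap in 13.4% of all genes on the lower side and in 14.2% on the higher side. The median log2 fold change was -0.26 over the 91 genes and -0.03 over all genes. Without WT for Fezf2 B, 19 genes were lower and 4 higher, where 6.06% of all genes were lower and 6.5% higher. Leaving out any other library gave between 2 and 6 lower genes and no higher one.

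Col17a1 stood at 84.3, 92.99 and 84.7 CPM in the WT libraries and fell to 24.3, 15.0 and 17.0 CPM in the KO. Each KO library was far below each WT library, with a log2 fold change of -2.21 (SE 0.24, adjusted p = 0.00108), and at -2.16 (adjusted p = 2.36e-05) without WT for Fezf2 B. Other genes of hemidesmosomes and their laminin did not pass the test with all libraries, with Lama3 at -0.50, Lamb3 at -0.19, Itga6 at 0.45, Itgb4 at -0.56 and Dst at -0.04. Without WT for Fezf2 B, Lama3 (-0.69, adjusted p = 0.0497) and Itgb4 (-0.76, adjusted p = 0.00922) were called lower. The keratin Krt5, which basal epithelial cells make and hemidesmosomes anchor, rose in the same libraries, from 332.5, 428.5 and 380.6 CPM to 832, 1041 and 1384 CPM (1.51, SE 0.23, adjusted p = 0.00635). Markers of thymic epithelium, Krt5 among them, summed to 5739 to 6265 CPM in the WT and 7415 to 8150 CPM in the KO, with 3 of 10 higher and none lower. Those of cortical epithelium summed to 1860 to 2479 CPM and 3571 to 4339 CPM, with 2 of 10 higher and none lower, and no marker of either list was at 0 reads. The mTEC marker sums were 11640, 16860 and 11850 CPM in the WT and 17550, 17550 and 16330 CPM in the KO. They overlapped only through WT for Fezf2 B, and 1 gene was higher and 1 lower of 12 tested. The mTEC list holds the targeted gene Fezf2 itself, and its higher gene was Krt5, which the thymic epithelium list also counts. The part of the mix of epithelial cells in these changes was not tested.

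Among laminins, nidogens and perlecan none of 14 passed the test with all libraries. Without WT for Fezf2 B, Nid2 (-0.84, adjusted p = 0.0415) was called lower, as was Lama3. In Lama5 the WT for Fezf2 libraries were at 17.8, 63.6 and 21.9 CPM, with B the highest, and KO libraries at 13.3, 15.0 and 19.7 CPM. The groups overlapped (-1.10, adjusted p = 0.212), and the difference was -0.31 without B. Nid1 had 50.7, 12.3 and 44.5 CPM in the WT and 72.3, 43.6 and 36.9 CPM in the KO (0.50, adjusted p = 0.583), with B now the lowest. Tnc was at 743, 280 and 782 CPM in the WT, B again the lowest, and at 526, 678 and 686 CPM in the KO (0.07, adjusted p = 0.939). Without B the log2 fold change was 0.11 for Nid1 (adjusted p = 0.838) and -0.27 for Tnc (adjusted p = 0.192).

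Fn1, fibronectin, fell from 130.2, 85.1 and 93.4 CPM to 33.2, 23.7 and 50 CPM (-1.53, SE 0.29, adjusted p = 0.0169). Tnr, tenascin-R, a tenascin of the nervous system, rose from 1.68, 1.31 and 1.69 CPM to 8.56, 7.41 and 6.88 CPM (2.27, SE 0.44, adjusted p = 0.0186) on 20 and 115 reads. Col5a3 fell from 74.8, 90.6 and 83.8 CPM to 25.2, 28.8 and 33.7 CPM (-1.51, SE 0.21, adjusted p = 0.00375). In none of the 3 did the groups overlap. Col5a2 fell by 1.495 on the log2 scale (adjusted p = 0.0151), Col6a2 by 1.38 (adjusted p = 0.0297) and Col14a1 by 1.10 (adjusted p = 0.0144), the last to 32.9, 32.5 and 32.3 CPM from 80.9, 68.1 and 60.0 CPM.

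Of the integrins, Itgb8 fell from 87.2, 52.6 and 84.3 CPM to 33.5, 34.0 and 32.8 CPM (-1.16, SE 0.24, adjusted p = 0.0221). Itgal, the alpha chain of the leukocyte integrin LFA-1, fell from 70.4, 43.0 and 47.9 CPM to 24.8, 23.7 and 19.3 CPM (-1.25, SE 0.25, adjusted p = 0.0206). Thymocyte markers moved with it: their sum was 440.8 to 801.2 CPM in their WT and 213.7 to 270.4 CPM in the KO, with 8 of 15 genes lower, none higher and none at 0 reads. Leukocyte markers summed to 1776 to 2831 CPM in the WT and 1042 to 1303 CPM in the KO, with 2 of 6 lower. Macrophage and dendritic cell markers summed to 1038 to 1272 CPM and 689.9 to 926.4 CPM, with none of 9 called. The part of such cells in the level of Itgal was not tested, and in bulk samples fewer cells of a type and less RNA per cell cannot be told apart. Its partner Itgb2 (-0.20, adjusted p = 0.727), Itga4 (-0.09), Itgae (0.28) and Itgb7 (0.16) did not pass the test, and neither did Itgb1 (0.64, adjusted p = 0.322) or Itgav (-0.28), although Itgav was called lower without WT for Fezf2 B (-0.51, adjusted p = 0.04).

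Bcam, Cd44 and Pdpn did not pass the test with all libraries, although each KO library lay above each WT library, as was so for 8.79% of the 91 genes tested and 14.2% of all genes. Bcam was at 31.6, 33.8 and 29.4 CPM in the WT and 46.5, 47.9 and 55.5 CPM in the KO (0.66, adjusted p = 0.0964). Cd44 was at 89.5, 78.8 and 91.0 CPM and at 141, 122 and 114 CPM (0.54, adjusted p = 0.145). Without WT for Fezf2 B, Bcam (adjusted p = 0.0146), Cd44 (adjusted p = 0.0304) and Pdpn (adjusted p = 0.0166) passed. Of the 9 genes called with all libraries, Col17a1 and Col5a3 kept the call whichever library was left out. Tnr and Itgb8 each lost it without 5 of the 6 libraries, Col14a1, Col6a2 and Itgal without 4, and Col5a2 and Fn1 without 3, at adjusted p of up to 0.157 and with the same sign. All 9 kept it without WT for Fezf2 B.

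Of the genes of the 6 joined lists, 10 of 113 were higher (8.85%) and 3 lower (2.65%), against 2.48 and 2.4% of all genes. Among further matrix glycoproteins and proteoglycans 5 of 31 were higher and 1 lower, the former including Fbn2 (2.99, adjusted p = 0.0344), Vcan, versican (1.997, adjusted p = 0.0331), and Lum (1.96, adjusted p = 0.00938). P4ha3 (2.19, adjusted p = 0.00586) and P4hb (0.93, adjusted p = 0.0301), subunits of collagen prolyl 4-hydroxylases, were higher and the crosslinking enzyme Loxl3 was lower (-1.498, adjusted p = 0.0161), out of 20. Gpc3 (1.55, adjusted p = 0.0227) and Cd9 (0.92, adjusted p = 0.0301) were higher of 18 further matrix receptors, Src was lower (-0.93, adjusted p = 0.0478) of 17 integrin partners, and none of 25 proteases and inhibitors passed the test.

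In the Chd4 cKO matrix genes changed in both directions. Tnc, the collagen IX chains Col9a2 and Col9a3, Col6a1, Col12a1 and Col22a1, the laminin chains Lama5, Lama3 and Lamb1, Itgb4 and Bcam rose, while Fn1, Col14a1, Col5a2, Itgb5, Nid1 and Lama2 fell. Of 87 genes tested 22 were higher and 21 lower, against 14.3% higher and 14.3% lower of all 15182 genes. The groups did not overlap in 22.1% of all genes on either side. The median log2 fold change was 0.05 over the 87 genes and 0.00107 over all. Leaving out 1 library gave 18 to 21 higher and 14 to 18 lower genes.

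Tnc rose from 963, 1018 and 1016 CPM to 3093, 2660.0 and 3174 CPM. Each cKO library was far above each control, at a log2 fold change of 1.57 (SE 0.08, adjusted p = 2.26e-06), on 11788 and 81739 reads. Tnc (ENSMUSG00000028364) lies on chromosome 4 at 63959785 to 64047015 in GRCm38. Fn1 fell from 109, 116 and 90.7 CPM to 52.8, 52.0 and 48.2 CPM (-1.04, SE 0.12, adjusted p = 0.000132), with no overlap. Tnn (-0.41, adjusted p = 0.0998) and Tnr (-1.38, adjusted p = 0.101) did not pass the test.

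Of the laminin alpha chains 2 rose and 2 fell. Lama5 rose from 47.8, 28.9 and 22.0 CPM to 85.4, 105 and 103 CPM (1.58, SE 0.22, adjusted p = 0.000558) and Lama3 from 97.3, 93.3 and 85.7 CPM to 142, 166 and 194 CPM (0.86, SE 0.12, adjusted p = 0.000592). Lama4, an alpha chain of vessels, fell by 0.81 (adjusted p = 0.0111) and Lama2, the chain of muscle and nerve, by 1.40 (adjusted p = 0.0187, lost without any of 3 libraries) on the log2 scale. Lamb1, the beta chain that pairs with Lama5 in many tissues, rose from 52.6, 60.9 and 47.6 CPM to 122.5, 108 and 135.5 CPM (1.18, SE 0.12, adjusted p = 0.000105). The groups did not overlap for any of these. Lama4 was picked for the text after its values were seen, as were Itga7 and Itgb8 further on. Endothelial markers also summed lower, at 70.05 to 81.12 CPM in the control and 57.99 to 67.57 CPM in the cKO, with 2 higher and 1 lower of 5 tested and none of 10 at 0 reads, and the part of vessels in the level of Lama4 was not tested. Lamb3 (0.40, adjusted p = 0.0694), Lamc1 (0.34, adjusted p = 0.128) and Lamb2 (0.24, adjusted p = 0.215) did not pass the test.

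In the hemidesmosome list, 6 of 12 genes rose and 1 fell. Itgb4 rose from 151, 151 and 158 CPM to 287, 298 and 316 CPM (0.97, SE 0.08, adjusted p = 3.15e-05). Itga6 rose by 0.44 (adjusted p = 0.0277) and Col17a1 by 0.60 (adjusted p = 0.0184) on the log2 scale, the latter from 95.7, 67.0 and 64.8 CPM to 135, 109 and 99.99 CPM. Itga6 lost its call without any of 4 libraries and Col17a1 without any of 3, at adjusted p of up to 0.0942. The keratins Krt5 (0.76, adjusted p = 0.000697) and Krt14 (0.73, adjusted p = 0.00863) rose with them, and the linker Dst fell from 91.4, 87.8 and 106.5 CPM to 57.1, 70.1 and 77.5 CPM (-0.49, adjusted p = 0.0181, and up to 0.0667 without 1 library).

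Nid1 fell from 40.8, 45.02 and 34.5 CPM to 28.6, 25.4 and 19.7 CPM (-0.69, SE 0.17, adjusted p = 0.0113, and 0.0517 without Chd4 control B), while Nid2 (0.23, adjusted p = 0.337) and Hspg2 (0.53, adjusted p = 0.138) did not pass the test. Of 7 basement membrane collagens tested 3 rose and none fell: Col4a5, Col4a1 and Col18a1. Col4a1 had 470, 394 and 312 CPM in the control and 480, 542 and 715 CPM in the cKO (0.56, adjusted p = 0.0274), its call being lost without any of 3 libraries, and Col4a2, its neighbour and partner, did not pass (0.21, adjusted p = 0.26).

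Among fibrillar collagens 2 rose and 4 fell of 10 tested. Col5a2 fell from 55.1, 57.6 and 56.5 CPM to 19.8, 17.98 and 13.3 CPM (-1.71, SE 0.15, adjusted p = 3.78e-05). Col3a1 fell from 40.8, 71.2 and 23.7 CPM to 19.98, 21.6 and 24.0 CPM (-1.05, adjusted p = 0.0265), with overlapping groups and a call that leaving out any of 5 libraries ended. Sums of fibroblast and pericyte markers were higher in these libraries, at 565.9 to 694.4 CPM in the control and 976 to 1307 CPM in the cKO, with Lum, Acta2 and Rgs5 higher and Mfap5 and Pi16 lower of 10 tested, and none of 12 at 0 reads. Their part in the collagen changes was not tested.

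Of the 19 collagens of fibril surfaces, beads and networks tested 8 were higher and 5 lower. Col9a2 rose from 24.5, 33.6 and 34.9 CPM to 143, 176 and 145 CPM (2.31, SE 0.15, adjusted p = 5.6e-06), the largest rise of the genes tested here. Col6a1 rose from 107, 100.2 and 114 CPM to 259, 318 and 295 CPM (1.44, SE 0.10, adjusted p = 1.17e-05). Col12a1 rose from 73.1 ± 6.22 to 179.5 ± 37.4 CPM and Col22a1, a collagen of tissue junctions, from 29.1 ± 3.67 to 80.1 ± 19.7 CPM. For each of these the cKO libraries lay above all controls. Col9a3, a partner of Col9a2, rose too, with a log2 fold change of 1.63 (SE 0.45, adjusted p = 0.0212), but lost its call with DESeq2, without Chd4 control A and without Chd4 cKO A, at adjusted p of up to 0.0745. Col14a1 fell from 70.05, 74.2 and 67.7 CPM to 34.6, 31.0 and 28.5 CPM (-1.17, SE 0.12, adjusted p = 7.8e-05), and Col8a1 from 8.68 ± 3.63 to 2.21 ± 0.745 CPM (-2.03, adjusted p = 0.00543). The collagen VI chains thus differed, since Col6a1, Col6a2 and Col6a4 rose, Col6a6 fell on 38 and 20 reads with a call lost without any of 3 libraries, and Col6a3 (-0.40) and Col6a5 (-0.77) did not pass the test.

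Integrin chains other than those of the hemidesmosome fell where they were called. Itgb5, a partner of Itgav, fell from 27.3, 26.5 and 31.4 CPM to 6.04, 11.4 and 5.14 CPM (-1.82, SE 0.27, adjusted p = 0.000842). Itgav fell by 0.49 (adjusted p = 0.00669), Itga7 by 0.89 (adjusted p = 0.00561), Itga9 by 0.92 (adjusted p = 0.0157) and Itgb8 by 0.44 (adjusted p = 0.0253) on the log2 scale. Itgad fell from 7.88, 9.40 and 13.6 CPM to 2.16, 1.88 and 2.14 CPM (-2.34, SE 0.34, adjusted p = 0.000721), and the sum of macrophage and dendritic cell markers was also lower, at 1164 to 1355 CPM in the control and 679.8 to 883.4 CPM in the cKO, with 3 lower and 1 higher of 8 tested. The part of those cells was not tested. Itgb1 overlapped, at 274, 227 and 246 CPM and 262, 249.5 and 252 CPM (0.03, adjusted p = 0.824), and Itgal (-0.03, adjusted p = 0.877), Itgb2 and Itgb7 did not pass the test beside thymocyte markers of 95.98 to 119.6 and 101 to 132.8 CPM.

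Bcam rose from 47.8, 39.6 and 45.2 CPM to 104, 102.5 and 101 CPM (1.22, SE 0.10, adjusted p = 3.07e-05). Cd44 was at 90.6, 102 and 89.0 CPM and at 74.9, 80.9 and 78.6 CPM, below the controls in each library without passing the test (-0.27, adjusted p = 0.0659), and Pdpn fell (-0.68, adjusted p = 0.0466) with a call that 5 of the 6 libraries, left out singly, ended. Of the 33 genes named by rule and called in this comparison, 20 kept the call whichever library was left out, Tnc, Col9a2, Lama5, Lama3, Lamb1, Itgb4, Itgb5, Fn1, Col14a1 and Bcam among them.

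Many other matrix genes changed in the Chd4 cKO: of the 6 joined lists, 41 of 111 genes rose (36.9%) and 15 fell (13.5%), against 14.3% of all genes in each direction. Of 30 further glycoproteins and proteoglycans tested 11 rose and 4 fell, led by Lum (2.86, adjusted p = 2.07e-05), elastin, Eln (1.74, adjusted p = 1.38e-05), and Thbs3 (1.73, adjusted p = 0.000332). Enzymes of collagen synthesis rose in 7 of 20 cases and fell in 3, led by Fkbp10 (1.85, adjusted p = 1e-04), Pcolce (1.57, adjusted p = 0.000107) and Plod2 (1.41, adjusted p = 0.000195). Among proteases and inhibitors 9 of 24 rose and 4 fell, with Mmp9 (1.66, adjusted p = 1.13e-05) and Adam15 (1.65, adjusted p = 2.07e-05) higher and Mmp13 (-1.60, adjusted p = 0.00595) lower. Of 17 integrin partners 6 rose and none fell, by at most 0.70 on the log2 scale (Fermt2). The collagen receptor Ddr2 (2.96, adjusted p = 2.27e-05) led 6 higher and 4 lower of 18 further receptors.

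**Figure D4:**
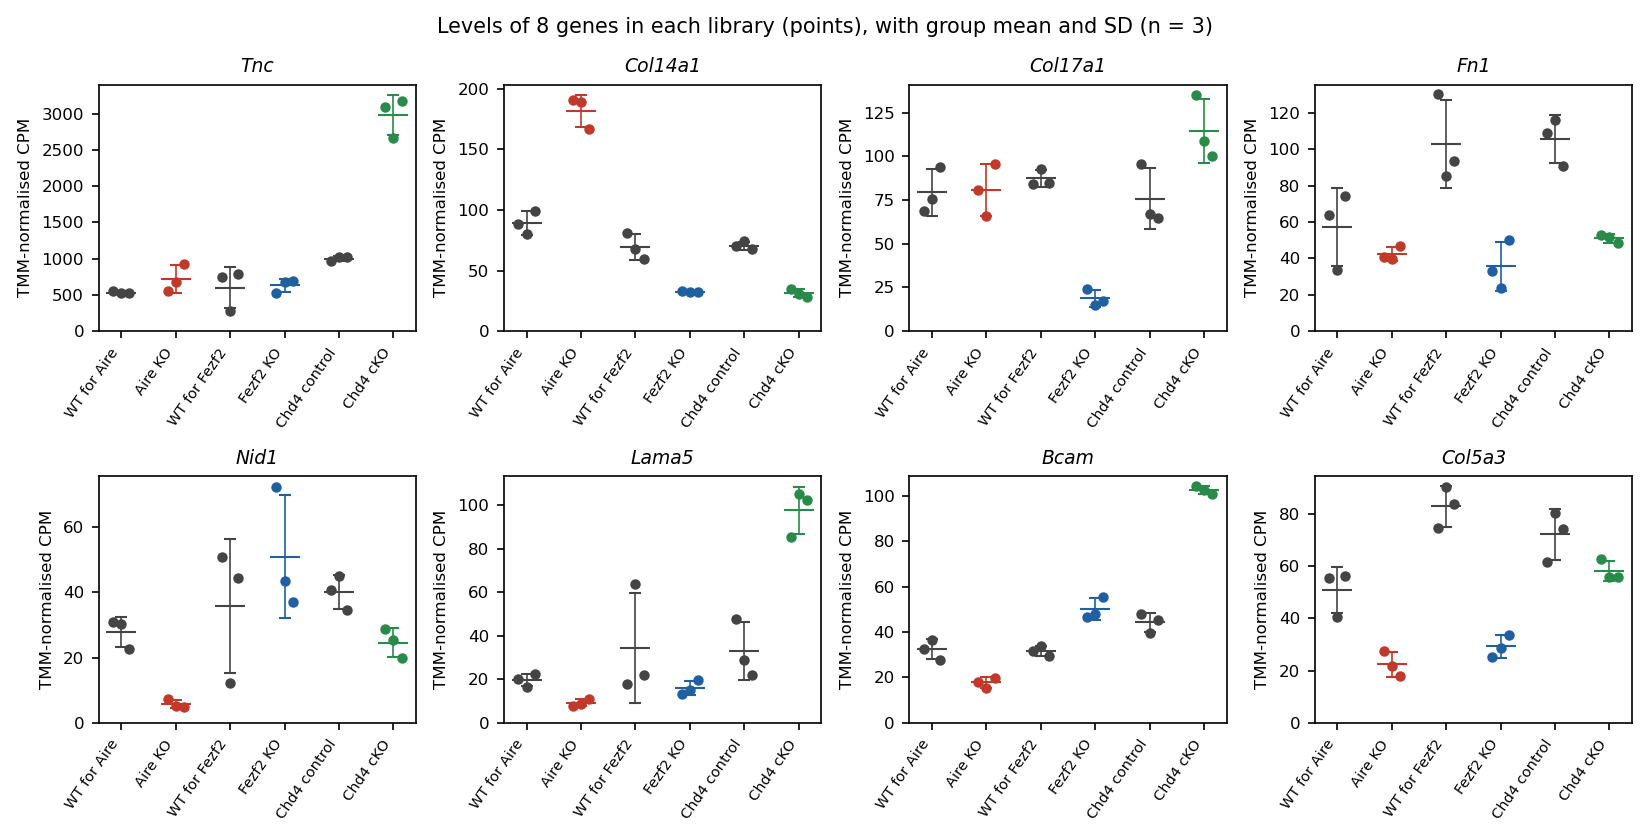
Level of 8 genes (vertical axis, TMM-normalised CPM) in the libraries of the 6 groups (horizontal axis); points are libraries, the horizontal mark is the group mean and the bar the SD (n = 3). Col14a1 is higher in the group labelled Aire KO and lower in the Fezf2 KO and the Chd4 cKO, and Col17a1 is low in the 3 Fezf2 KO libraries, at 15.0 to 24.3 CPM.

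Across the 3 comparisons, which share no libraries, 41 of the 96 genes were called in none, 34 in 1, 19 in 2 and 2 in all 3. The latter were Itgb8, lower in each, and Col14a1, higher in the group labelled Aire KO and lower in the other knockouts. In the Fezf2 KO their calls were lost without 5 (Itgb8) and 4 (Col14a1) of the 6 libraries. The share of all genes for these counts was not worked out, so they are not read as a trait of the 96 genes. The filter on low counts left 16, 5 and 9 of the 96 genes untested in the Aire, Fezf2 and Chd4 comparisons. Col4a6, Itga10 and Itgb1bp2 were tested in none, so genes called in none include untested ones. The genes lower in the group labelled Aire KO met those lower in the Chd4 cKO in 8 genes (32.0% of 25 and 38.1% of 21): Col10a1, Col1a1, Col20a1, Col3a1, Col8a1, Itga7, Itgb8 and Nid1. Over all genes, 33.6% of those lower in the group labelled Aire KO were lower in the Chd4 cKO and 12.8% higher. From the other side, 21.7% of all genes lower in the Chd4 cKO and 8.27% of those higher there were lower in the group labelled Aire KO. The 25 genes lower in the group labelled Aire KO met those higher in the Chd4 cKO in 7 genes (28.0% of 25 and 31.8% of 22): Bcam, Col13a1, Col18a1, Col4a5, Col5a1, Col6a1 and Lama5. Fezf2 KO and Chd4 cKO shared the falls of Col14a1, Col5a2, Fn1 and Itgb8 (4 of 8 and 4 of 21, against 31.6 and 5.47% over all genes). Col17a1 and Col6a2 were lower in the Fezf2 KO and higher in the Chd4 cKO (2 of 8 and 2 of 22, against 17 and 2.96% over all genes). The Fezf2 KO and the group labelled Aire KO shared the falls of Col5a3 and Itgb8 (2 of 8 and 2 of 25, against 26.1 and 7% over all genes).

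**Figure D5:**
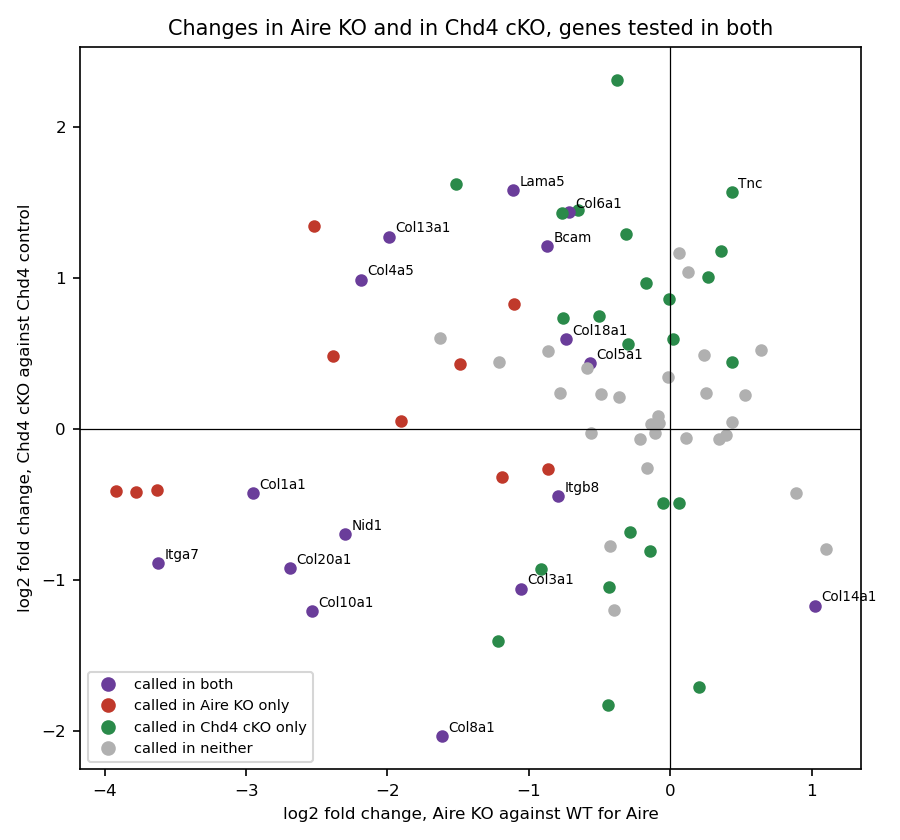
Log2 fold change in the group labelled Aire KO against its WT (horizontal axis) and in the Chd4 cKO against its control (vertical axis) for the 79 genes tested in both; colours give in which comparison a gene was called and labels name Tnc and the genes called in both. Lama5, Bcam and Col6a1 lie at the upper left, Nid1 and Col1a1 at the lower left, and Col14a1 alone among the labelled genes at the lower right.

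The difference between effects was tested directly as an interaction. For Chd4 cKO minus the group labelled Aire KO, 37 of 94 genes had a higher and 4 a lower effect, against 11.4% and 5.11% of all 16169 genes, where the median over all genes was 0.12. Bcam differed by 2.10 (SE 0.22, adjusted p = 1.6e-06), Lama5 by 2.71 (SE 0.52, adjusted p = 0.00099), Col13a1 by 3.28 (SE 0.60, adjusted p = 0.000621) and Col14a1 by -2.18 (SE 0.20, adjusted p = 2.31e-07) on the log2 scale. Tnc differed by 1.15 (adjusted p = 0.0294). Nid1 and Col1a1, lower in both, fell further in the group labelled Aire KO, by 1.62 (adjusted p = 0.0366) and 2.55 (adjusted p = 0.000166).

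For the Fezf2 KO minus the group labelled Aire KO, 15 of 93 genes had a higher and 4 a lower effect, against 8.73% and 3.85% of all genes, and without WT for Fezf2 B the counts were 16 and 7. Col17a1 (-2.26, adjusted p = 8.9e-05) and Col14a1 (-2.15, adjusted p = 1.56e-05) differed downward. Nid1 (2.78, adjusted p = 0.00406), Bcam (1.504, adjusted p = 0.00142), Cd44 (1.38, adjusted p = 0.00197), Itga7 (3.65, adjusted p = 0.00108, and 5.16 without Aire KO C) and Col1a1 (3.32, adjusted p = 0.000213) differed upward. For the Chd4 cKO minus the Fezf2 KO, 18 of 94 genes had a higher and 5 a lower effect, against 8.03% and 6.87% of all genes. Without WT for Fezf2 B the counts were 24 and 5, against 9.59% and 8.98% of all genes. Col9a2 (3.20, adjusted p = 1.51e-06), Col17a1 (2.85, adjusted p = 1.63e-06), Col6a4 (2.78, adjusted p = 0.000212), Lama5 (2.72, adjusted p = 0.00084, and 1.92 without WT for Fezf2 B) and Col6a1 (2.49, adjusted p = 0.000143) differed upward, and Tnr (-3.55, adjusted p = 0.00741, and -4.32 without Chd4 cKO C) downward.

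Some members lie near each other in the genome, with 18 pairs under 500 kb apart. Pairs were formed among the 96 genes only, so other genes can lie between them. In the Chd4 cKO both genes of 5 pairs were called, 4 of them in the same direction, and Col6a1 was in 2 of the pairs. There 49.4% of the 87 genes tested and 28.6% of all genes were called. Some of the 18 pairs hold an untested gene, and neighbouring pairs over all genes were not counted. Col6a2, Col6a1 and Col18a1, at gaps of 85 and 326 kb on chromosome 10, all rose (0.74, 1.44 and 0.60). Col3a1 and Col5a2 on chromosome 1 both fell. Lama5 and Col9a3, 372 kb apart on chromosome 2, both rose, while Col20a1, 364 kb beyond Col9a3, fell (-0.92). In the Fezf2 KO, Col5a2 fell and Col3a1, 25 kb away, was at 0.36 without passing the test. In the group labelled Aire KO both genes of 1 pair were called, Col6a1 and Col18a1, and both fell (-0.72 and -0.74). Tnn fell there by 3.78 and its neighbour Tnr did not pass the filter on low counts. Col4a1 and Col4a2, which are adjacent on chromosome 8, had log2 fold changes of -0.30 and -0.36 in the group labelled Aire KO, 0.48 and 0.54 in the Fezf2 KO and 0.56 and 0.21 in the Chd4 cKO.

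The WT groups, compared with each other, had no gene of the 87 tested past the threshold in edgeR, where 0.0958% of all genes were higher and 0.0319% lower in the WT for Fezf2. At an unadjusted p under 0.05 there were 18, where 11.9% of all genes were, and DESeq2 called 2 higher and 1 lower. Without WT for Fezf2 B edgeR called 2 higher and 1 lower.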

How the data were processed

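The deposited tables hold total exon reads per gene, whole-number counts that the authors made from their reads and did not normalise, and the other 216 per-library columns were not used. Per the submitters' processing notes the builds were GRCm38 and mm10 and DESeq2 was used; the aligner's settings and strand counting were not given in the sources used here. Libraries were made with a full-length cDNA kit per the labels. Columns were matched to groups by name and carry no replicate number. Each knockout was tested against its own control with edgeR 4.0.16 in R 4.3.3 (quasi-likelihood test, TMM scaling, filterByExpr filter, Benjamini-Hochberg threshold 0.05 over all genes), and differences between effects as an interaction in 1 fit. The scripts were tested on simulated data. Levels (CPM) are counts scaled to library size by TMM, and RPKM (per kilobase) uses the exon lengths in the tables. Intervals cover counting error only. Members of the gene set and all lists were chosen with earlier results of these data known. By rule, the text names up to 12 called genes per direction and up to 3 called genes per pathway list. It also names a set list of adhesion, basement membrane and leukocyte integrin genes. For differences between effects the rule took the 8 largest per contrast, and the text gives only some of these. Other differences come from the set list or were picked later. Genes in overlaps, opposite calls and neighbouring pairs were picked later too. Alternatives were DESeq2 1.42.0, limma 3.58.1 voom with quality weights, no filter, 1 fit over 12 libraries, and leaving out each library. Some results are not reported here.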

Additional observations from a re-analysis of the deposited data

Results flagged for a closer look

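These genes were called in opposite directions in a pair of knockouts, and the difference between the effects, tested as an interaction in edgeR, was called as well. Because the genes were picked for opposite calls in the same libraries, the called difference is no separate support. Col14a1, a fibril-associated collagen, had a difference of -2.15 on the log2 scale (SE 0.23, adjusted p = 1.56e-05) for the Fezf2 KO minus the group labelled Aire KO, and of -2.18 (SE 0.20, adjusted p = 2.31e-07) for the Chd4 cKO minus that group. Both contrasts share the Aire libraries. For the Chd4 cKO minus the group labelled Aire KO, the laminin chain Lama5 differed by 2.71 and its receptor Bcam by 2.10. In the same contrast the collagens Col4a5 and Col18a1 of basement membranes differed by 3.21 and 1.35, the transmembrane collagen Col13a1 by 3.28, Col6a1 by 2.18 and the fibrillar Col5a1 by 1.03 (adjusted p between 1.6e-06 and 0.00834). The fall of Lama5 in the group labelled Aire KO was not called in a fit over 12 libraries (adjusted p = 0.0904) or without WT for Aire C (0.0513), and without Aire KO C the difference in Col4a5 was 4.52. For the Chd4 cKO minus the Fezf2 KO, the hemidesmosome collagen Col17a1 differed by 2.85 (adjusted p = 1.63e-06) and Col6a2 by 2.15 (adjusted p = 0.00181). The Chd4 libraries differ from the others in strain and sequencing run, and the part of these in the differences cannot be told apart.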

How the results depend on the processing

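No paired analysis was possible because the columns carry no replicate number. None of the counts and named values turned direction while called. Under the alternatives, named values lost a call in 20 and gained one in 13 of 380 cases for Aire. These were 28 and 17 of 330 for Fezf2, and 43 and 3 of 414 for Chd4. In the group labelled Aire KO the count of higher genes, 1 in the main test, was 3 with DESeq2, 3 without the filter on low counts and 2 with limma voom. In the Fezf2 KO the 1 higher gene became 2 without the filter, 5 with voom and 2 in a fit over 12 libraries, and the 8 lower genes became 13 without the filter and 24 with voom, while the share of all genes called lower went from 2.4 to 2.75 and 8.33%, and of those called higher from 2.48 to 2.52 and 7.6%. Between the WT groups, DESeq2 called 2 higher and 1 lower gene against 0 and 0, as did edgeR without the filter. The 15 higher differences of the Fezf2 KO minus the group labelled Aire KO became 25 without the filter. The cause of these moves was not tested. Leaving out 1 library gave 1 to 3 higher and 14 to 27 lower genes for Aire, 0 to 4 and 2 to 19 for Fezf2, 18 to 21 and 14 to 18 for Chd4, and 0 to 2 and 0 to 1 between the WT groups. For the differences it gave 28 to 33 and 2 to 4 (Chd4 minus Aire), 17 to 24 and 3 to 7 (Chd4 minus Fezf2), and 11 to 16 and 2 to 7 (Fezf2 minus Aire). Depth limits genes under about 4 CPM, where 3 reads were worth up to 0.84 CPM.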
